A study of Mus musculus with 19 samples.

Results

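The 9 genes described here were picked by name as cranial neuron transcription factors and identity genes. They are the basic helix-loop-helix factors Neurog2 and Neurod1, the homeodomain factors Phox2a, Isl1, Tlx2 and Prrxl1, the RNA-binding proteins Elavl3 and Elavl4, and the receptor tyrosine kinase Ret. All 9 were found among the 21964 protein-coding genes of the count table. The cells were single EPCAM+PLET1+ cells sorted from thymic primordia of wild type mouse embryos (C57BL/6 in the methods) at embryonic day E10.5 or E12.5, with no treatment at either stage. EPCAM is an epithelial adhesion molecule and PLET1 a surface protein of thymic epithelial progenitors. E10.5 was sampled in 4 plates with the letters a to d, and E12.5 in 5 plates with the letters a to e. Plate b of E12.5, sequenced in a single run, was held outside the comparisons, which leaves 4 plates per stage. Of the cells of these plates, 356 and 355 passed the filters. The sources used here do not say which embryos a plate held, so p-values measure the spread between plates, which may in part be technical.

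Cranial sensory neurons arise from neurogenic placodes, patches of thickened ectoderm, and from neural crest. The epibranchial placodes lie beside the pharyngeal clefts and pouches and give visceral sensory neurons, for which Neurog2 acts early and Phox2a marks the visceral identity, whereas somatosensory neurons of trigeminal placode or crest origin use Neurog1, Pou4f1 and Prrxl1. Isl1 and the Elavl proteins are shared by many postmitotic neurons, and Isl1 is also made by pharyngeal endoderm.

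Reads of protein-coding genes in the cells that passed were between 11674156 and 14363255 per plate at E10.5 and between 14599988 and 17545016 at E12.5. Plate a at E10.5 stood apart in complexity, with a median of 1480.5 genes detected per cell against 2570.0 to 3260.0 in the other 3 plates. Epcam was read in 292 of 356 E10.5 cells and 323 of 355 E12.5 cells, and Plet1 in 147 and 54. Foxn1, the master regulator of thymic epithelium, was read in 11 E10.5 cells and 252 E12.5 cells, so this defining marker of the thymic label was widely read at E12.5 and nearly absent at E10.5.

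On the mouse genome (GRCm38.p6, RefSeq genes) Phox2a lies at chr7:101818313-101822726, Neurod1 at chr2:79452637-79456636 and Isl1 at chr13:116298270-116309688. Neurog2 lies at chr3:127632733-127635636, Prrxl1 at chr14:32595867-32649246, Elavl3 at chr9:22015005-22052146 and Elavl4 at chr4:110203737-110351939. Ret at chr6:118151748-118197744 and Tlx2 at chr6:83068325-83070225 share a chromosome. Promoter sequence was present for 7 of the 9 genes, with 10 start sites in all. The 250 bases before the start are shown for Phox2a, which fell to near 0 at E12.5, for Neurod1, a factor that acts after Neurog2, and for Isl1, which was still read in 159 cells at E12.5. Capitals mark E-boxes, the letters CANNTG bound by basic helix-loop-helix factors, searched on both strands.
Phox2a, plus strand, chr7:101818063-101818312: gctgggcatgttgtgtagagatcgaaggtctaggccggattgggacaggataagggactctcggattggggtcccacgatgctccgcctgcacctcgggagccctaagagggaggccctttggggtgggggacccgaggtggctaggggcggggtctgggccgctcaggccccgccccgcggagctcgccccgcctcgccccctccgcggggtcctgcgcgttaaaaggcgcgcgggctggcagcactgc
Neurod1, minus strand, chr2:79456637-79456886: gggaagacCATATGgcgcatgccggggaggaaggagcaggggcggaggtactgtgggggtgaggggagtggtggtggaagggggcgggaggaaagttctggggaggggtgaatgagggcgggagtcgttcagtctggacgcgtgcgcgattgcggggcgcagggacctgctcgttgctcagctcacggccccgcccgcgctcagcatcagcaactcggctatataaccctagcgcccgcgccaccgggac
Isl1, minus strand, chr13:116309689-116309938: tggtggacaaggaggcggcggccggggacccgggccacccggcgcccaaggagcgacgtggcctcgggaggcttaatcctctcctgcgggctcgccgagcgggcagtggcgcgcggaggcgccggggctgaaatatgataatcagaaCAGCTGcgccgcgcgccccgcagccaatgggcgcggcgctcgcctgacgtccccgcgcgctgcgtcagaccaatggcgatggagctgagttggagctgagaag
The Phox2a window held no E-box, the Neurod1 window held 1, CATATG, and the Isl1 window held 1, CAGCTG. An E-box stood in 66.22% of the 32851 promoter windows of the same length, and CAGCTG in 13.0%, so these matches are common and are given as a description.

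The proneural factor Neurog2, which commits placodal precursors to a neuronal fate, was present in all 4 plates at E10.5 and nearly gone at E12.5. Levels are given as CPM, the reads of a gene for each 1000000 protein-coding reads, over all cells of a plate that passed. At E10.5 Neurog2 was at 30.8, 54.4, 94.2 and 28.0 CPM in plates a, b, c and d, and at E12.5 it was at 0.0609, 0.0685, 0 and 0 CPM in plates a, c, d and e. The stages did not overlap. At least 1 read was found in 17 of 88, 34 of 91, 36 of 85 and 37 of 92 E10.5 cells, or 34.8% ± 10.53 (SD, n = 4 plates). At E12.5 it was found in 2 of 355 cells, 1 read in each.

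Neurod1, which acts after Neurog2 in neuronal differentiation, was uneven between the plates. It was at 50.7, 25.3, 73.8 and 2.16 CPM in E10.5 plates a to d. Plate d was the low one, with reads in 9 of 92 cells against 13 of 88, 23 of 91 and 31 of 85 in plates a to c. At E12.5 Neurod1 was at 0, 2.47, 1.99 and 0 CPM in plates a, c, d and e, so plate c at E12.5 lay above plate d at E10.5. These E12.5 values came from 1 cell in plate c with 36 reads and 1 cell in plate d with 35 reads. The cell of plate c also held 209 reads of Tubb3, a neuronal tubulin, and no read of Epcam or Foxn1.

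Phox2a, the homeodomain factor of visceral neurons, had the smallest spread of the 9 genes relative to its mean at E10.5 (SD 10.9 CPM, n = 4 plates). It was at 57.7, 76.0, 53.4 and 52.9 CPM in plates a to d, and at 0, 0.479, 0.114 and 0.129 CPM in the E12.5 plates (a, c, d, e). The stages were far apart and did not overlap. Reads were found in 16 of 88, 26 of 91, 34 of 85 and 31 of 92 E10.5 cells, or 30.1% ± 9.23. At E12.5 they were found in 10 of 355 cells, and no such cell held more than 2 reads.

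Tlx2, a homeodomain factor of crest-derived and visceral neurons, was at 16.0, 52.5, 70.1 and 43.9 CPM in E10.5 plates a to d. It was read in 7 of 88, 23 of 91, 22 of 85 and 22 of 92 cells, or 20.8% ± 8.57. Plate a was low by both measures. At E12.5 plate c held 2 cells with 1 read each, and plates a, d and e held none. A count of 0 in the 91, 85 and 89 cells of these plates allows a share of cells with a read of up to 3.30%, 3.53% and 3.37%, for counting error alone.

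Prrxl1, a homeodomain factor of somatosensory neurons, was rare. Reads were found in 1, 4, 3 and 2 cells of E10.5 plates a to d, or 2.81% ± 1.44. A single cell of plate a held 257 of the 328 reads, 78.4% of the total, so its level of 20.4, 1.58, 3.68 and 0.487 CPM in plates a to d followed that cell. At E12.5 1 read was found in 1 of 355 cells.

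The RNA-binding proteins Elavl3 and Elavl4 mark young postmitotic neurons. Elavl3 was at 77.1, 32.0, 21.6 and 11.1 CPM in E10.5 plates a to d, with reads in 13, 12, 7 and 8 cells, and 1 cell held 26.5% of them. At E12.5 Elavl3 was read in 2 cells, both of plate c, 1 read each. Elavl4 was at 46.9, 6.11, 15.0 and 0.0696 CPM in E10.5 plates a to d. Plate d again stood low, with 1 read in 1 of 92 cells, against 16, 11 and 14 cells in plates a to c. At E12.5 Elavl4 was at 1.89, 0.890, 0 and 0.452 CPM in plates a, c, d and e, which overlapped plate d at E10.5.

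Ret, the receptor for ligands of the GDNF family, was at 3.10, 9.20, 4.63 and 9.26 CPM in E10.5 plates a to d, from 1, 6, 3 and 2 cells. At E12.5 it was at 1.46, 0.548, 0 and 0 CPM, from 1 cell of plate a and 2 cells of plate c. The E12.5 plates were all below the E10.5 plates, although 12 and 3 cells in all are few.

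Isl1, a LIM homeodomain factor of neurons and of pharyngeal endoderm, was still widely read at E12.5. It was at 241, 84.9, 110 and 107 CPM in E10.5 plates a to d and at 115, 61.2, 97.9 and 104 CPM in the E12.5 plates (a, c, d, e). The stages overlapped. Reads were found in 56.8% ± 8.15 of cells at E10.5 and in 44.9% ± 16.8 at E12.5 (SD, n = 4 plates each). Within E12.5 the share ran from 23 of 90 cells in plate c to 59 of 89 in plate e, with exact 95% binomial intervals of 16.9% to 35.8% and 55.5% to 76.0%.

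**Figure D1:**
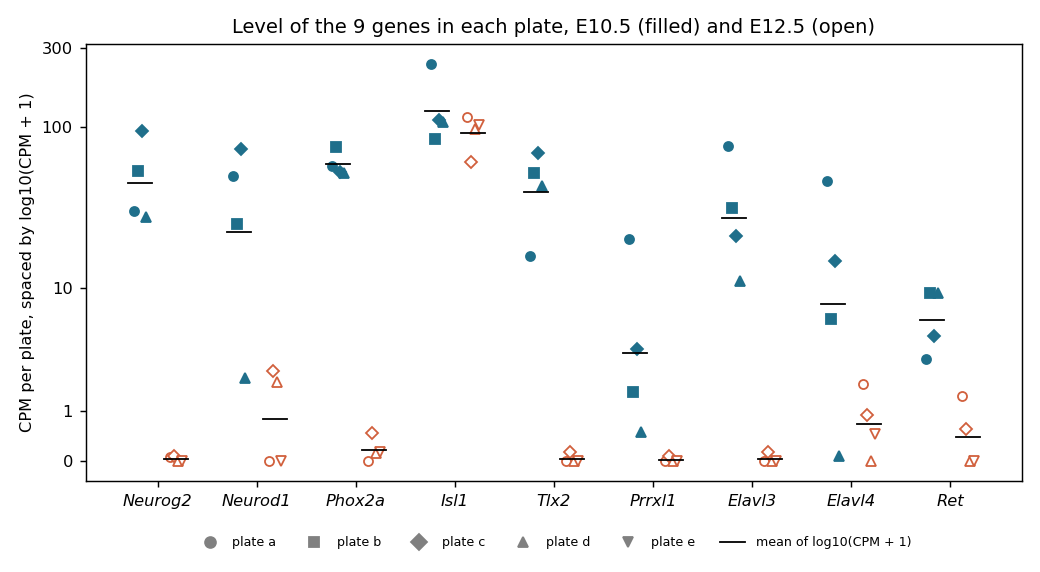
Level of each of the 9 genes in every plate, in CPM of protein-coding reads spaced on a log10(CPM + 1) axis, with filled symbols for the 4 E10.5 plates, open symbols for the 4 E12.5 plates and a bar for the mean on that axis. Isl1 is the gene whose stages overlap at a high level, from 61.2 to 241 CPM, and plate d at E10.5 is low for Neurod1 (2.16 CPM) and Elavl4 (0.0696 CPM).

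The comparison of the stages asked which of these genes were lower in the cells sorted at E12.5 than in those sorted at E10.5. Each plate held cells of either E10.5 or E12.5, so stage and plate cannot be told apart. Neuronal-marker cells, defined below, were 51 at E10.5 and 2 at E12.5. The part of this in the stage differences was not tested. With edgeR's quasi-likelihood test on plate sums and Benjamini-Hochberg adjustment over the 11499 genes tested, 4 of the 8 members tested were lower at E12.5 (Neurog2, Phox2a, Tlx2 and Elavl3) and none was higher, while 2.44% of all tested genes were called lower. The adjusted p in edgeR was 3.72e-05 for Neurog2, 8.28e-05 for Phox2a, 0.000128 for Tlx2 and 0.000353 for Elavl3. Neurod1 (adjusted p = 0.0629), Elavl4 (0.147), Ret (0.190) and Isl1 (0.462) did not pass in edgeR, and Prrxl1 was too low to be tested. DESeq2 called 8 members lower, that is every member but Isl1. Without plate a of E10.5, which stood apart in genes detected, edgeR called 4. Over the 8 members tested, the median log2 fold change was -6.76, against 0.0013 over all genes tested.

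Since few reads remained at E12.5, the change is given as a ratio of pooled levels with its counting interval. Neurog2 was 1612-fold higher at E10.5 (95% interval 446 to 13315, from 2610 and 2 reads), and Tlx2 1448-fold (400 to 11964, from 2345 and 2 reads). Elavl3 was 1114-fold higher (308 to 9205), Prrxl1 405-fold (72.2 to 16048, from 328 reads and 1 read) and Phox2a 350-fold (195 to 701). Neurod1 was 32.5-fold higher, Elavl4 20.5-fold and Ret 13.4-fold, with counting intervals of 25.6 to 41.8, 15.4 to 27.7 and 9.34 to 19.9. Isl1 was 1.41-fold higher (1.36 to 1.46). These intervals treat each read as an independent count. Reads are not independent molecules, so the intervals are too narrow even for counting error, and they say nothing of the spread between plates. The size also depended on the measure. On molecules, edgeR gave log2 fold changes of -7.48 for Neurog2, -6.44 for Tlx2, -3.60 for Phox2a, -3.30 for Neurod1 and -0.656 for Isl1. On reads these were -10.42, -10.26, -8.43, -5.10 and -0.529, and the other members were not tested on molecules. Leaving out each plate in turn, an alternative chosen after seeing the data, moved the ratio by more than 1.5 times in 7 of the 9 genes. Without plate a of E10.5 the ratio was 116 for Prrxl1, 8.21 for Elavl4 and 681 for Elavl3. Isl1, which moved less, was then at 1.05. Without plate a of E12.5 it was 38.9 for Elavl4 and 39.96 for Ret. Without plate c of E12.5 it was 743 for Phox2a, 50.9 for Neurod1 and 2489 for Neurog2, while Tlx2, Prrxl1 and Elavl3 then had no read left at E12.5. All 9 ratios stayed above 1 wherever a ratio could be formed.

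Every E12.5 plate lay below every E10.5 plate for 6 of the 9 genes (Neurog2, Phox2a, Tlx2, Prrxl1, Elavl3 and Ret), while 5.78% of the genes tested by edgeR showed this. In a two-sided exact permutation test of the mean log2(CPM + 1), these 6 had p = 0.0286, the smallest that 4 plates against 4 allow. The exact p was 0.0571 for Neurod1, 0.114 for Elavl4 and 0.40 for Isl1. These are 9 tests with unadjusted p.

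A read of any of the 8 genes other than Isl1 was found in 188 of 356 E10.5 cells (52.8%) and in 28 of 355 E12.5 cells (7.89%). By plate these were 36, 52, 53 and 47 cells at E10.5 and 6, 16, 3 and 3 cells at E12.5 in plates a, c, d and e. Plate c thus held 16 of the 28 E12.5 cells. With 5 or more reads of a gene asked for, there were 140 E10.5 cells and 8 E12.5 cells. No E12.5 cell held 2 of these 8 genes, whereas 121 E10.5 cells did.

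The 8 E12.5 cells with 5 or more reads were of different kinds. The 4 with Elavl4, of plates a, c and e, held 7 to 18 reads of it together with 34 to 144 reads of Foxn1 and 21 to 222 reads of Pax1, a factor of pharyngeal pouch and thymic epithelium, and no read of Tubb3. The pair of cells with Ret, of plates a and c, held 24 and 7 reads, with 244 and 194 reads of Epcam and 1 read of Foxn1 each. The 2 Neurod1 cells of plates c and d held no read of Foxn1.

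**Figure D2:**
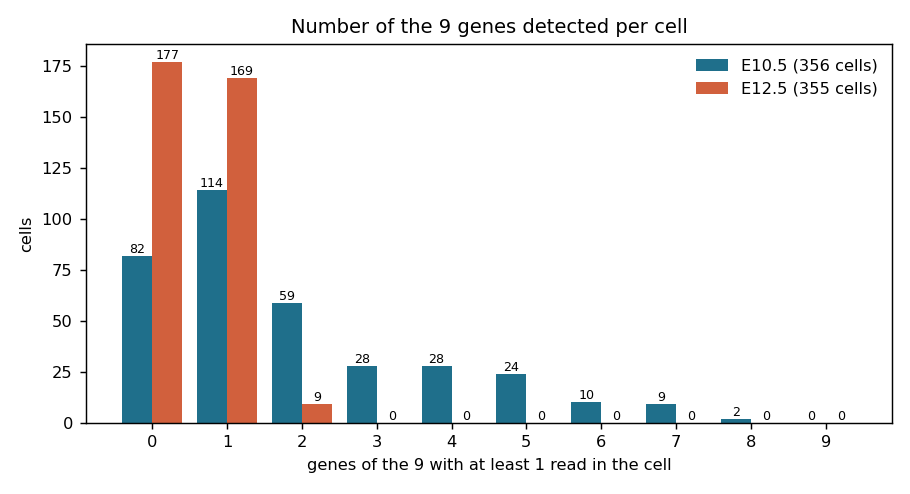
Number of the 9 genes with at least 1 read in a cell (horizontal axis) against the number of cells (vertical axis), for 356 E10.5 and 355 E12.5 cells. At E10.5 101 cells held 3 or more of the genes and 2 held 8, while no E12.5 cell held more than 2.

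Isl1 at E12.5 was set against Foxn1 and against Gcm2, the master regulator of parathyroid fate, to see in which cells it was read. In cells with 5 or more reads of Gcm2, Isl1 was read in 1 of 11, 0 of 12, 2 of 8 and 3 of 7 cells of plates a, c, d and e. In cells with no read of Gcm2 it was read in 36 of 79, 23 of 78, 37 of 76 and 56 of 81. The share was lower in the Gcm2 cells in all 4 plates, 19.2% ± 18.8 against 48.2% ± 16.3 (SD, n = 4). Pooled, the level of Isl1 was 9.67 CPM in 38 Gcm2 cells and 106 CPM in 314 cells without Gcm2, at median depths of 162244 and 171906.5 reads per cell. The Gcm2 cells were 7 to 12 per plate. Both splits were chosen after values had been seen, and no test was made.

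With Foxn1 the order was the other way. Isl1 was read in 28 of 49, 17 of 50, 25 of 54 and 39 of 59 cells with 5 or more reads of Foxn1 in plates a, c, d and e, and in 8 of 33, 5 of 29, 10 of 25 and 10 of 16 cells with none. The share was higher in the Foxn1 cells in all 4 plates, 50.9% ± 13.9 against 36.0% ± 20.1. The level was higher in the Foxn1 cells of plates a, d and e but not of plate c, where it was 39.9 CPM against 93.9 CPM. Foxn1 cells were also read more deeply, with a median of 186926.5 reads against 151691.0. With each cell thinned to 40000 reads the pooled shares were 43.4% and 24.3%, and those with and without Gcm2 were 7.89% and 40.1%.

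**Figure D3:**
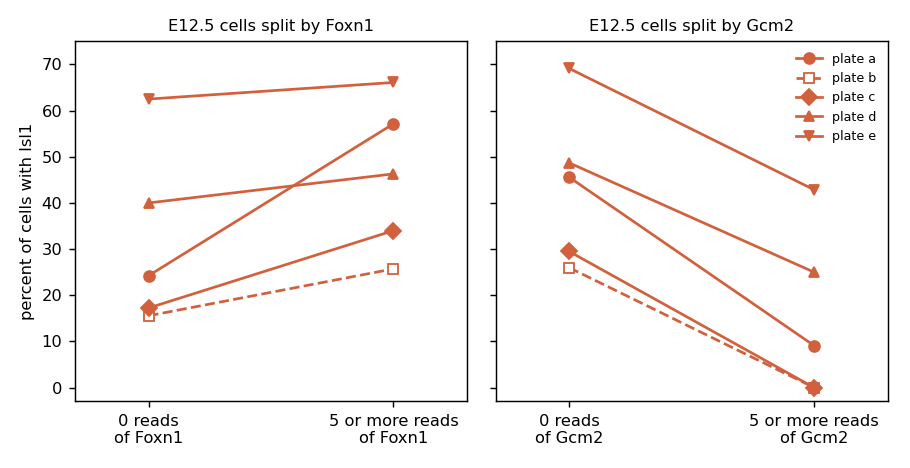
Percent of E12.5 cells with at least 1 read of Isl1 (vertical axis) in cells without and with a marker (horizontal axis), for Foxn1 on the left and Gcm2 on the right, 1 line per plate. Plate b, drawn dashed and open, was sequenced in a single run and stands outside the comparisons. Isl1 cells were more frequent with Foxn1 and less frequent with Gcm2 in each of the 5 plates.

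To see which E10.5 cells carried the genes, cells were split by a list of 8 pan-neuronal genes that holds none of the 9 (Tubb3, Stmn2, Stmn3, Gap43, Nefl, Ina, Dcx and Crmp1). Cells with 3 or more of these at 10 CPM or more are called neuronal-marker cells. They were 10 of 88, 17 of 91, 11 of 85 and 13 of 92 cells in E10.5 plates a to d, 51 in all, and 2 of 355 cells at E12.5. A cell one step inside or outside this limit differs by 1 gene, and 28 of the 51 held exactly 3 while 49 other cells held 2. Stmn2 alone of the list was frequent at E12.5, in 303 of 355 cells. Depth was similar in both classes at E10.5, with a median of 135046.0 reads and 2600.0 genes in neuronal-marker cells and 132943.0 reads and 2544.0 genes in the others. The list holds neuronal genes known to go with the 9, so the comparison of the classes describes where the 9 lie.

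Each of the 9 genes was read in a larger share of neuronal-marker cells than of other cells. Phox2a was read in 37 of 51 neuronal-marker cells and 70 of 305 others, Isl1 in 39 and 163, Neurog2 in 34 and 90, Tlx2 in 33 and 41, and Neurod1 in 32 and 44. Elavl3 was read in 22 and 18, Elavl4 in 20 and 22, Prrxl1 in 7 and 3, and Ret in 5 and 7. Thus 55.0% of the Elavl3 cells and 7 of the 10 Prrxl1 cells were neuronal-marker cells, but 27.4% of the Neurog2 cells and 19.3% of the Isl1 cells were.

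Levels in the plate sums had a wide spread, and 7 of the 9 genes were higher in the neuronal-marker cells of all 4 plates, Isl1 and Ret of 3. The share of all genes that were higher in all 4 plates, or had no overlap between the classes, was not counted. Phox2a was at 286, 167, 105 and 172 CPM in the neuronal-marker cells of plates a to d and at 24.2, 54.5, 45.5 and 35.2 CPM in the others, with no overlap. Elavl3 was at 472, 137, 73.1 and 77.7 CPM and at 19.2, 7.26, 13.6 and 1.12 CPM, again with no overlap. Prrxl1 had no overlap either, at 160, 3.17, 26.9 and 3.22 CPM against 0, 1.21, 0.0989 and 0.0800 CPM. It was read in 7 neuronal-marker cells and 3 others. Tlx2 was at 19.3, 184, 217 and 224 CPM in neuronal-marker cells, where plate a was low, and at 15.5, 21.6, 47.5 and 17.0 CPM in the others. Isl1 was at 578, 183, 87.9 and 169 CPM against 192, 61.8, 113 and 97.8 CPM, and was lower in the neuronal-marker cells of plate c. Ret was at 24.3, 38.1, 32.1 and 4.82 CPM against 0, 2.42, 0.395 and 9.92 CPM, and was lower in the neuronal-marker cells of plate d, where 1 cell of each class held it.

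None of the 9 passed edgeR's quasi-likelihood test between the classes after adjustment over 9822 genes, and 0.122% of all genes (12) were called higher in neuronal-marker cells. The log2 differences in edgeR were 4.20 (SE 0.88) for Elavl3, adjusted p = 0.132, 2.19 (0.50) for Phox2a, 0.168, and 2.80 (0.79) for Tlx2, 0.186. Of the 9, 6 had an unadjusted p under 0.05 in edgeR (Elavl3, Phox2a, Prrxl1, Tlx2, Neurod1 and Neurog2). Since the classes were cut from genes known to go with the 9, these p-values are no separate support. DESeq2 called 4 (Prrxl1, Elavl3, Phox2a and Tlx2), and edgeR on molecules instead of reads called 4 (Tlx2, Elavl3, Neurog2 and Phox2a). Over all genes DESeq2 called 147 higher and 334 lower in neuronal-marker cells, where edgeR called 12 higher and 0 lower. With the plate as replicate block none of the 9 passed, and 0.143% of genes did. The median log2 difference of the 9 was 2.82, against -0.11 over all genes.

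**Figure D4:**
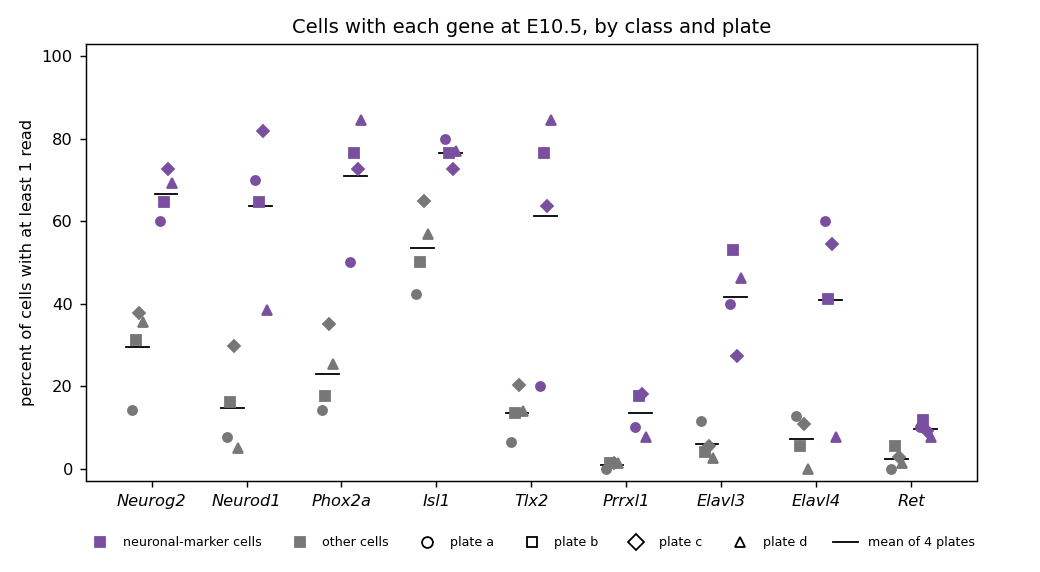
Percent of E10.5 cells with at least 1 read of each of the 9 genes (vertical axis), in neuronal-marker cells (purple) and other cells (grey), with 1 symbol per plate and a bar for the mean of 4 plates. Phox2a averages 71.0% against 23.0%, Tlx2 of plate a and Elavl4 and Neurod1 of plate d are the low points among neuronal-marker cells, and Isl1 is frequent in both classes.

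Cells with these genes outside the neuronal-marker class were set against epithelial markers. Of 90 such Neurog2 cells, 80 held Epcam, 38 held Plet1 and 26 held Pax1, against 259, 142 and 122 of all 305 cells outside the class. Of 41 such Tlx2 cells 31 held Epcam and 11 held Plet1, and of 22 such Elavl4 cells 15 and 3. Of the 90 Neurog2 cells 84 held Hes6, against 219 of all 305 cells outside the class. Hes6, a factor of neurogenesis, was also read in 316 of 355 E12.5 cells. Foxi2, an ectodermal and epibranchial placode factor, was read in 32 of the 90 and Pax8 in 40, against 59 and 80 of the 305. In the 82 E10.5 cells with none of the 9 genes, Foxi2 was read in 11 and Pax8 in 10. The cells with no member were shallower, at a median of 2143.0 genes against 2593.0 in cells with 3 or more members. Among neuronal-marker cells, Plet1 was read in 5 of 51 against 142 of 305 others, and Epcam in 33 of 51 against 259 of 305, although PLET1 and EPCAM protein were the sorting criteria. The placodal epithelium genes Pax8, Sox2, Foxi2 and Eya1 did not pass in edgeR between the classes.

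Single E10.5 cells often carried several of the genes. Of 356 cells, 82 held none, 114 held 1, 59 held 2 and 101 held 3 or more (28.4%), with 8 genes at most in 2 cells of plate b. Cells with 3 or more were 21, 24, 31 and 25 in plates a to d. Of the 45 cells with 5 or more, 29 were neuronal-marker cells. With 5 or more reads asked of each gene, 68 cells held 3 or more.

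Of all 36 pairs, Tlx2 cells that also held Phox2a made up the largest share of a gene's cells. Tlx2 was read in 74 cells and 61 of them (82.4%) held Phox2a, which is 57.0% of the 107 Phox2a cells. Phox2a and Neurog2 met in 74 cells, 69.2% of the Phox2a cells and 59.7% of the 124 Neurog2 cells. All of Phox2a, Tlx2 and Neurog2 met in 47 cells, of which 2, 16, 13 and 16 were in plates a to d. Neurog2 and Neurod1 met in 50 cells, 65.8% of the Neurod1 cells, and Elavl3 met Elavl4 in 20 of 40 cells. A chain of Neurog2, Neurod1, Phox2a, Isl1 and Tlx2 was complete in 25 cells, 1, 10, 10 and 4 by plate.

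Of the 36 pairs, 34 met in more cells than the product of their shares within plates would give, with a median ratio of 1.90. Neurog2 with Isl1 lay near the product, at 74 cells against 72.4, and Phox2a with Isl1 at 72 against 62.7. Prrxl1 and Ret, in 10 and 12 cells, met in none, where the product gives 0.42 cells, so nothing can be read from it. Depth is shared by all genes of a cell, and the number of members followed the number of genes detected with a Spearman rho of 0.20 over the 356 cells. The part of depth in these ratios was not tested. How many pairs of other genes lie above their product was not counted, so this is a description.

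**Figure D5:**
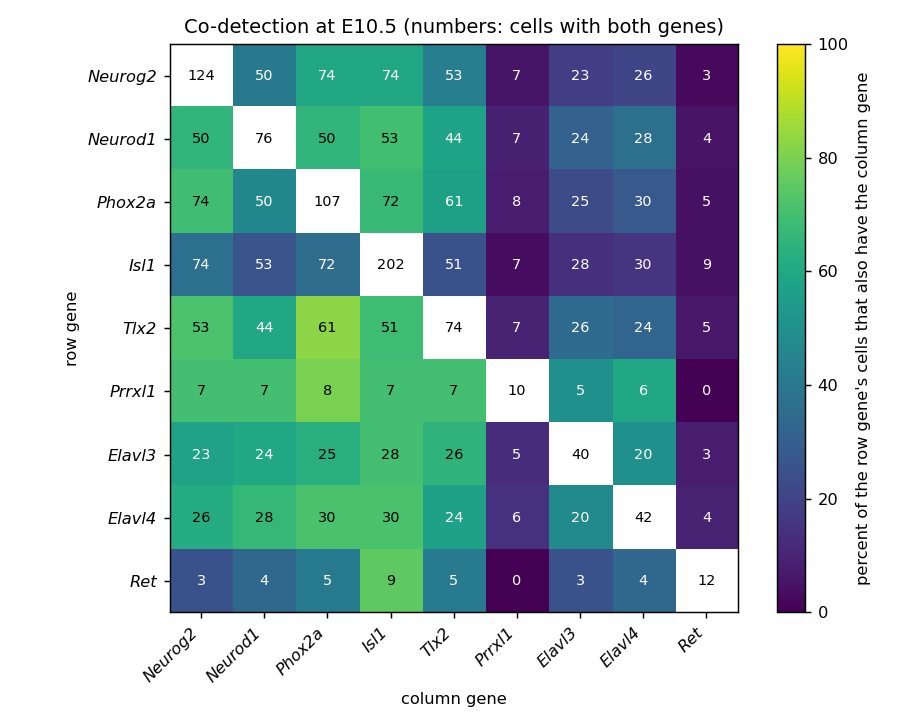
Co-detection of the 9 genes in E10.5 cells. Colour gives the percent of the cells of the row gene that also hold the column gene, numbers off the diagonal give cells with both genes and numbers on the diagonal give cells with the gene. The Tlx2 row is brightest at Phox2a (61 of 74 cells), and Isl1 is the most frequent gene, in 202 cells.

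Markers of several neuron types were set beside the 9 genes in the 51 neuronal-marker cells, over lists of genes chosen with earlier results of these data known. Among genes of the visceral sensory neurons of the epibranchial placodes, Tlx3 was read in 14 of 51 neuronal-marker cells and 7 of 305 others. Eya2 was read in 39 and 130, Ntrk2 in 7 and 16, and P2rx3, an ATP receptor subunit of sensory neurons, in 8 and 7. P2rx2 was at 0 in the neuronal-marker cells. In edgeR's quasi-likelihood test between the classes Eya2 (adjusted p = 0.345), P2rx3 (0.345), Tlx3 (0.796) and Ntrk2 (0.9998) did not pass.

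Among genes of somatosensory neurons, Pou4f2, Runx1, Runx3 and Pax3 were at 0 in the neuronal-marker cells. Neurog1 was read in 11 of 51 cells, Pou4f1 in 3 and Prdm12 in 1. Neurog1 did not pass edgeR's quasi-likelihood test between the classes (adjusted p = 0.578). These genes were often in cells with Phox2a, the visceral factor. Over all E10.5 cells, Phox2a was read in 15 of 22 Neurog1 cells, 5 of 5 Pou4f1 cells and 8 of 10 Prrxl1 cells. Prrxl1 met Pou4f1 in 1 and Neurog1 in 2 of its 10 cells.

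Among genes of neural crest and its glia, Sox10, Foxd3 and Ednrb were at 0 in the 51 neuronal-marker cells, and Erbb3 and Fabp7 were read in 1 cell each. A count of 0 in 51 cells allows a share of cells with a read of up to 6.98%. A cell without a read may still express the gene. Of the 305 other E10.5 cells Erbb3 was read in 51, Ednrb in 2, Sox10 in 1 and Foxd3 and Fabp7 in none. Of 355 E12.5 cells Ednrb was read in 62, Erbb3 in 31, Sox10 in 3 and Foxd3 and Fabp7 in none. Crest-derived neurons lose Sox10 as they mature, so this gene bears on progenitors.

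For sympathetic and other autonomic neurons, Hand1 and Gata2 were at 0 in the neuronal-marker cells, Hand2 was read in 2 and Th in 1. Dbh, the enzyme that makes noradrenaline, was read in 10 of 51 neuronal-marker cells and 2 of 305 others. None of these was high enough to be tested. Among genes listed for motor neurons, Mnx1, Lhx4 and Tbx20 were at 0. Chat was read in 4 and Slc18a3, the vesicular acetylcholine transporter, in 11 neuronal-marker cells. Isl2 was read in 28 of 51 neuronal-marker cells and 98 of 305 others, and none of 3 genes tested passed.

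Of 14 genes of the neurogenesis cascade, 13 were detected in neuronal-marker cells. Nhlh2 was read in 25, Neurod4 in 21, Ebf1 in 23, Insm1 in 17 and Dll3 in 12 of 51. Ebf1 was called higher than in other cells (edgeR log2 difference 4.04, SE 0.61, adjusted p = 0.0284), 1 of 9 tested, and with the plate as replicate block 0 of 9 were. Among the GDNF family genes, the co-receptor Gfra1 was read in 24 of 51 and 52 of 305 cells, and in 7 of the 12 Ret cells, while none of 3 tested passed. Of the 12 Ret cells, 3 held Dbh.

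Across the stages these lists moved as follows in edgeR, at an adjusted p under 0.05. Of 8 genes of the neurogenesis cascade tested, 4 fell by E12.5 (Dll3, Insm1, Ebf3 and Neurod4) and none rose. Eya2, also made by pharyngeal endoderm, rose from a pooled 156 to 563 CPM. In the placodal epithelium list Pax8, Sox2 and Foxi2 fell. Isl2 and Slc18a3 fell among 2 tested of the motor list, and Gfra1 fell among 5 of the GDNF list. Tubb3, Nefl and Crmp1 fell and Stmn2 rose among 7 of the pan-neuronal list, and the crest genes Ednrb and Erbb3 did not pass.

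Among paralogs of the 9 genes, Isl2 and Elavl2 fell between the stages and Elavl1, the family member made in most cells, did not pass. Between the classes Elavl2 (adjusted p = 0.168 in edgeR), Isl2 (0.501) and Elavl1 (0.9998) did not pass. Elavl1 was read in 199 E10.5 and 198 E12.5 cells, and Elavl2 in 56 and 6. Tlx1 was read in 4 and 3 cells, and Neurog3 was at 0 at both stages.

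Outside the members, the 9 genes whose level over the 356 E10.5 cells followed the number of members most closely were named by Spearman's rho of log2(CPM + 1), among 7251 genes read in at least 10% of cells. They were Mfng (0.62), Ppp1r14a (0.57), Nefl (0.56), Tmsb4x (0.56), Nefm (0.54), Tuba4a (0.54), Hes6 (0.53), Serping1 (0.53) and Igfbpl1 (0.51). Mfng, a glycosyltransferase that modifies Notch receptors, was read in 73.3% of cells with 3 or more members and in 3.66% of cells with none. Its rho was 0.49, 0.70, 0.66 and 0.63 within plates a to d. Nefl and Nefm are neurofilament subunits, and Nefl is also in the list that set the classes. The cells of a plate share a library, so no p is given.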

How the data were processed

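Single-cell RNA-seq was analysed from 4 plates per stage. The authors' pipeline for BD Precise plates used FastQC, assigned reads to wells, aligned them with STAR and counted them with HTSeq. They deposited raw read counts per gene and well, and counts of molecules adjusted by DBEC, with GRCm38.p6 in the file headers and GRCm38.p5 in the processing notes. The plate, whose 2 runs the table adds (equal for 54179 genes in 3 wells of each plate), was the replicate. Cells were kept with 40000 to 400000 protein-coding reads, 500 to 5000 genes and at most 50% mitochondrial reads. CPM divide by the protein-coding reads. Plate sums of reads, and sums by class within plates (at least 3 cells each), were fitted with edgeR 4.0.16 (TMM, filterByExpr, robust quasi-likelihood, limma 3.58.1) in R 4.3.3, with DESeq2 1.42.0 as alternative, at an adjusted p under 0.05. The standard error is the log2 fold change divided by the root of edgeR's F, and the scripts were tested on simulated data. Shares have exact Clopper-Pearson intervals at 95%, for counting error alone. Depth was 11674156 to 17545016 protein-coding reads per plate. Single genes were tested by exact permutation of log2(CPM + 1) in Python 3.11.15 with scipy 1.17.1.

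The members and gene lists were chosen with earlier results of these data known. Genes named are the 9 members, list genes that define a list or on which a result turns, and the genes most correlated with the number of members per cell, of which the first 9 are given. Some genes of the lists are not reported here. The splits by Foxn1 and Gcm2 and the chosen combinations of genes were added after values had been seen. Cells were sorted singly, so no doublets were called. Sums of both classes of a plate come from 1 library, so the plate pairs them, and the correlation of their residuals across genes was 0.11, 0.080, 0.052 and 0.16 in plates a to d. Plate letters do not pair the stages (0.074, -0.012 and 0.027 for a, c and d).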

Additional observations from a re-analysis of the deposited data

Results flagged for a closer look

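Over 36 sets of 4 plates, made of the level and the share of cells of each gene at each stage, 9 held a plate whose distance to the nearest other plate was over Dixon's 95% critical share of the whole range. Chance marks about 1 set in 20 where values are continuous, a rate that does not apply to the 6 sets at E12.5 below, in which the other 3 plates were at 0 and any read would pass. At E10.5 these were the Isl1 level of plate a, 241 CPM against 84.9 to 110 CPM, the Prrxl1 level of plate a, 20.4 CPM against 0.487 to 3.68 CPM, of which 1 cell held most reads, and the Tlx2 share of plate a, 7.95% of cells against 23.9% to 25.9%. Plate a was also the plate with the fewest genes detected per cell, and the part of this in its values was not tested. At E12.5 they were plate c for Tlx2 (0.137 CPM, 2.22% of cells), Elavl3 (0.137 CPM, 2.22% of cells) and Prrxl1 (0.0685 CPM, 1.11% of cells), where 1 or 2 single reads set the value.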

How the results depend on the processing

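Between the stages, 4 members were called lower in edgeR and 4 to 6 when a plate was left out, 4 under RLE normalization and with all wells, 5 of 9 with no filter on low counts and 3 of 5 tested with molecules. DESeq2 called 8, and 1638 genes in all against 718 in edgeR. With the plate letter as replicate block over plates a, c and d, 215 genes and 4 members were called. Leaving out plate d at E10.5 brought Neurod1 past the threshold (log2 fold change -5.49, edgeR adjusted p = 0.0464), as did DESeq2 for Neurod1, Elavl4 and Ret, and the total ran from 496 to 815 genes. Between the classes, no member passed in edgeR and 12 genes did, against 4 members and 481 genes in DESeq2, 4 and 58 with molecules, 1 and 27 with at least 2 pan-neuronal genes, and 1 and 572 with at least 4. The members passing at the latter limits were Tlx2 and Elavl3. The balance of directions over all genes turned with the setting: 12 were higher and 0 lower in edgeR, against 147 and 334 in DESeq2, 40 and 532 with at least 4 pan-neuronal genes, 43 and 15 with molecules and 25 and 2 with at least 2. With the plate as replicate block 0 members and 14 genes passed. Leaving out plates a, b, c and d gave 11, 1, 1 and 3 genes and 0 members. The share of E10.5 cells with a member other than Isl1 was 52.8%, 49.8% to 56.7% when a plate was left out, and 39.3% both at 5 or more reads and by molecules. Cells with 3 or more members were 28.4%, 19.1% at 5 or more reads, 18.5% by molecules and 25.8% to 29.9% when a plate was left out. The share at E12.5 was 7.89%, and 4.53% to 9.40% when a plate was left out. The pooled stage ratios without each plate, chosen after seeing the data, ran from 8.21 to 38.9 for Elavl4 and from 116 to 548 for Prrxl1. No value of the 9 genes changed its direction under the alternatives run. Where no cell of a plate of 91 held a read, a share of up to 3.97% is still allowed.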

Other observations

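Plate b at E12.5, sequenced in 1 run and held outside the comparisons, had 87 cells that passed, with a median of 68744.0 reads per cell. Isl1 was read in 20 of them (74.5 CPM), Phox2a and Elavl4 in 1 cell each with 1 read, and Neurog2, Neurod1, Tlx2, Prrxl1, Elavl3 and Ret in none. Among its cells, Isl1 was read in 0 of 8 with 5 or more reads of Gcm2 and in 20 of 77 with none, and in 9 of 35 with 5 or more reads of Foxn1 and 7 of 45 with none.

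Chgb, a granin of secretory neurons and endocrine cells, was read in 11 of 51 neuronal-marker cells and 1 of 305 other E10.5 cells and in 2 of 355 E12.5 cells. It was called higher in neuronal-marker cells (edgeR log2 difference 10.20, SE 1.47, adjusted p = 0.0241), 1 of 3 genes tested of the parathyroid and neuroendocrine list, of which 0 passed with the plate as replicate block. Chga went the other way between stages, read in 39 E10.5 and 308 E12.5 cells. With 5 or more reads asked for, these were 25 and 127 cells, and by molecules of the first run 13 and 58. In E12.5 cells with a read of Chga its median level was 20.9 CPM, while the highest cell held 10202 reads. Genes of pouch endoderm (7 tested), thymic epithelium (2), mesenchyme (1) and blood and endothelium (1) gave no call between the classes. Between the stages, 4 of 4 thymic and 5 of 7 pouch genes rose by E12.5, of which Plet1 alone fell, 2 of 4 parathyroid and neuroendocrine genes rose, 1 of 2 mesenchymal genes fell, and of 2 blood and endothelial genes 1 rose and 1 fell.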
